A study of Mus musculus with 6 samples.

Results

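The genes described are the carriers that move amino acids and neurotransmitters across membranes. They were chosen by symbol, as every gene of the Slc1, Slc6, Slc7, Slc36, Slc38 and Slc43 families together with Slc3a1 and Slc3a2. The pattern matched 67 of the 32285 genes in the count tables, of which 63 are transporter genes and 4 are genes on the opposite strand named after a transporter (Slc7a6os, Slc36a3os, Slc36a1os and Slc6a19os). By family the 63 transporter genes are 7 Slc1, 21 Slc6, 15 Slc7, 4 Slc36, 11 Slc38, 3 Slc43 and 2 Slc3 symbols, opposite-strand genes not included. Nuclei came from hippocampi of aged mice, 18 to 20 months old. Mice of the sevoflurane group (3 libraries) were kept for 6 h under 2% sevoflurane, an inhaled anaesthetic, with 60% oxygen flowing at 1 L/min. Mice of the oxygen group (3 libraries) received 60% oxygen alone for as long. Raised oxygen was therefore common to both groups. The sources used here do not give the strain, the animals behind a library or the time between exposure and tissue collection, so p-values reflect library spread only.

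Glutamate released at synapses is cleared by Slc1 carriers, for which astrocytes are the best known site, and GABA by carriers of the Slc6 family. Many Slc7 light chains work only when paired with the heavy chain Slc3a2 or Slc3a1, and such pairs bring large neutral amino acids across the endothelium of the blood-brain barrier or exchange cystine for glutamate. Slc38 carriers move glutamine and other neutral amino acids, and several Slc36 and Slc38 members sit in the lysosome.

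After filtering, 51752 nuclei remained of 53824 barcodes, with deposited totals of 56334621 to 72636984 unique molecular identifiers (UMIs, 1 per captured transcript) per library and library medians of 4646 to 6096.5 UMIs per nucleus. Nuclei were clustered and named by marker genes, none of them a transporter of these families, and each name is written as X-like. Of 17 named classes, 12 held at least 20 nuclei in every library and were tested, from 9843 dentate granule-like to 348 CA2 pyramidal-like nuclei. Another 9212 nuclei stayed unnamed. Any 2 libraries shared 15 to 33 barcodes. By label, replicate 3 of either group is female and the rest are male, but sevoflurane replicate 1 had 1360 counts scaled to a fixed library total (CPM) of Xist and almost no Y-linked counts, and the other 5 libraries had the male pattern. Results are therefore also given without sevoflurane replicate 1 where that ends a call. A choroid plexus-like cluster of 174 nuclei held no nucleus of a sevoflurane library, against 60, 16 and 98 nuclei in oxygen libraries. In bulk sums of nuclei, fewer cells of a type and less RNA per cell cannot be told apart, which bears on every value given over all nuclei.

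Of the 67 symbols, 45 (44 transporters and Slc7a6os) reached a mean of 10 CPM over the 6 libraries in at least 1 tested class, and 22 did not. For 24 of the 45, the lowest library of the highest class lay above the highest library of the next class. Endothelial-like nuclei were the highest class for 12 genes, astrocyte-like and microglia-like nuclei for 8 each, and ependymal-like and oligodendrocyte-like nuclei for 4 each. The 6 neuronal classes together were the highest for 8 genes. All 6 neuronal classes averaged above all 6 other classes for only 3 genes, namely Slc7a6, Slc6a17 and the opposite-strand gene Slc7a6os. The reverse held for 7 genes, namely Slc1a3, Slc6a13, Slc7a2, Slc7a7, Slc7a10, Slc36a4 and Slc38a3. CPM is not corrected for gene length, so levels are compared between classes and not between genes.

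**Figure D1:**
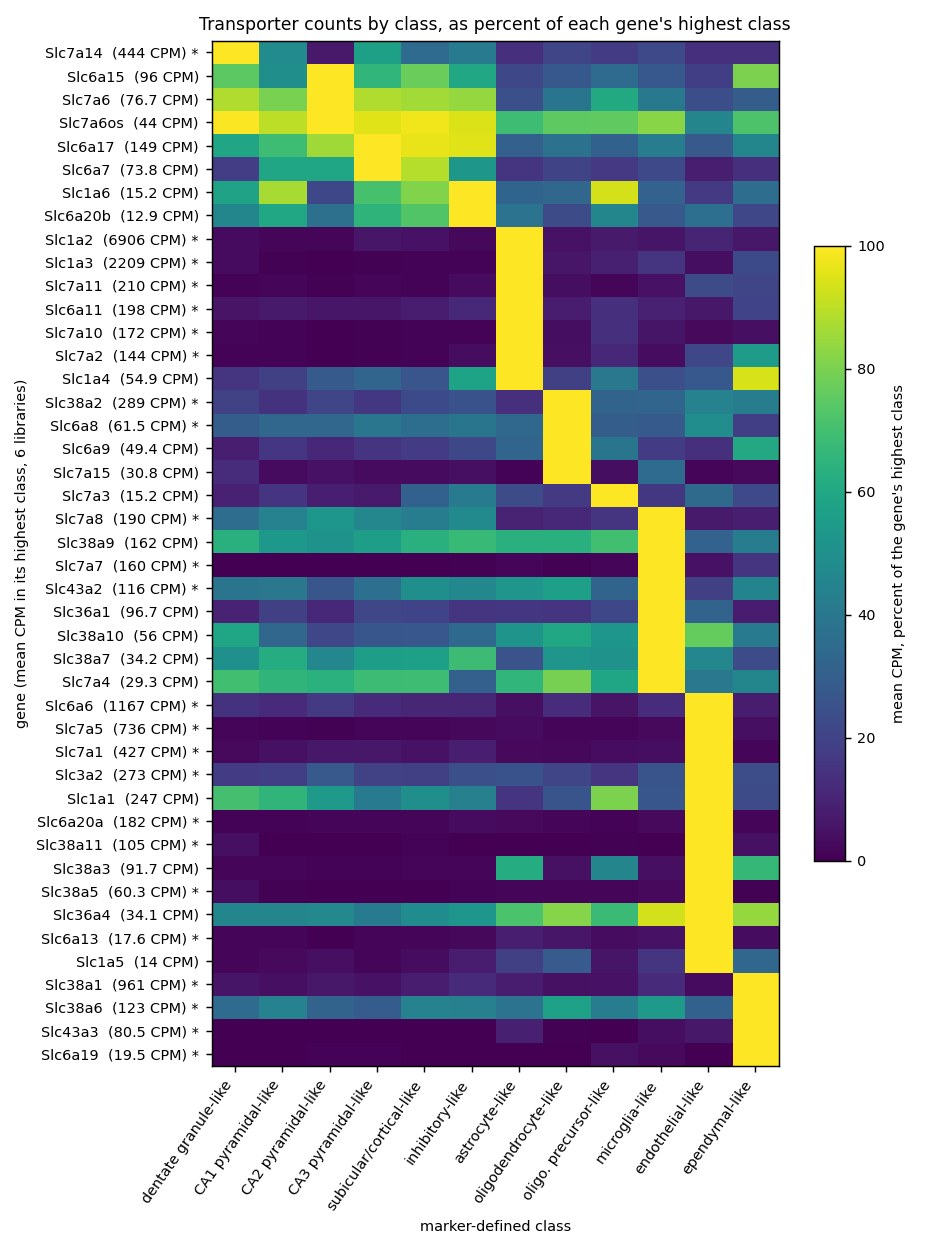
Mean CPM of 44 of the genes that reached 10 CPM in a class (rows, with the CPM of the highest class) across the 12 tested classes (columns), as percent of each gene's highest class. Stars mark the 24 genes whose highest class stood clear of the next in all 6 libraries, among them Slc1a2 in astrocyte-like (6906 CPM) and Slc7a5 in endothelial-like nuclei (736 CPM).

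Among the glutamate carriers, Slc1a2 (GLT-1), the main glutamate uptake carrier of astrocytes, was highest in astrocyte-like nuclei at 5933 to 7747 CPM (mean 6906). Endothelial-like nuclei followed at 719 CPM, clear of the oligodendrocyte precursor-like nuclei at 493 CPM. From there to oligodendrocyte-like nuclei (334 CPM) neighbours in the order overlapped between libraries. Dentate granule-like nuclei had 201 CPM, and CA2 pyramidal-like nuclei were lowest at 86.8 CPM. Slc1a3 (GLAST), the other astrocytic uptake carrier, had 2209 CPM in astrocyte-like, 498 CPM in ependymal-like and 344 CPM in microglia-like nuclei. Its level in dentate granule-like nuclei, 62.1 CPM, stood clear of the 21.2 CPM of inhibitory-like nuclei, and the other neuronal classes lay between 7.46 and 17.3 CPM.

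Astrocyte markers were set beside both genes in each class, as the ratio of the gene to 13 markers summed (the list without Slc4a4, which dentate granule-like nuclei also held). For Slc1a2 the ratio was 1.58 to 2.07 over the libraries in astrocyte-like nuclei. It lay above that range in every library of dentate granule-like (2.19 to 2.53), subicular or cortical excitatory-like (3.25 to 5.23) and CA3 pyramidal-like nuclei (4.98 to 7.38). It overlapped the range in CA1 pyramidal-like (1.48 to 1.85) and inhibitory-like nuclei (1.51 to 1.79), and lay below it in the other 6 classes, among them CA2 pyramidal-like nuclei (0.349 to 1.06). For Slc1a3 the ratio was 0.49 to 0.771 in astrocyte-like nuclei and 0.541 to 0.9 in dentate granule-like nuclei, which overlapped, and its median was 0.192 in CA1 pyramidal-like nuclei. How much of either gene's count in other classes is free RNA from astrocytes was not tested.

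Slc1a1 (EAAC1), the glutamate and cysteine carrier of neurons, was highest in endothelial-like nuclei at 247 CPM and next in oligodendrocyte precursor-like nuclei at 198 CPM, whose libraries overlapped. Dentate granule-like nuclei (174 CPM) and CA1 pyramidal-like nuclei (162 CPM) came after, and astrocyte-like nuclei were lowest at 38.1 CPM. Slc1a6 (EAAT4), known from Purkinje cells, was low throughout, from 15.2 CPM in inhibitory-like and 14.2 CPM in oligodendrocyte precursor-like nuclei down to 2.57 CPM in endothelial-like nuclei. Slc1a7, best known from the retina, stayed under 10 CPM in all 12 classes. Of the neutral exchangers, Slc1a4 (ASCT1), which moves serine, had 54.9 CPM in astrocyte-like nuclei, overlapping 51.6 CPM in ependymal-like nuclei, and 8.35 CPM in dentate granule-like nuclei. Slc1a5 (ASCT2), a glutamine exchanger, reached 14 CPM in endothelial-like nuclei, with 4.63 CPM in ependymal-like and 0.235 CPM in dentate granule-like nuclei.

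**Figure D2:**
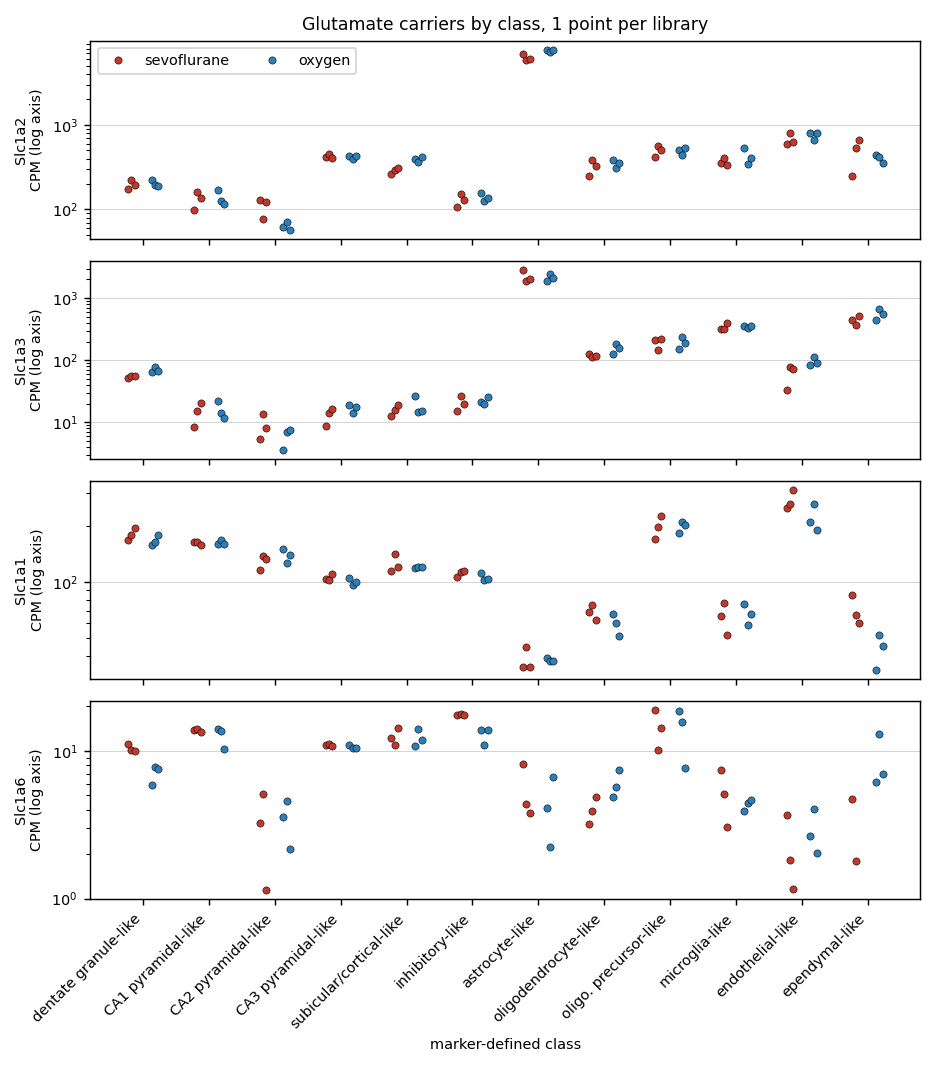
CPM (log axis) of the glutamate carriers Slc1a2, Slc1a3, Slc1a1 and Slc1a6 in each tested class, 1 point per library, sevoflurane left of oxygen; 1 ependymal-like sevoflurane library with 0 counts of Slc1a6 is not drawn. Slc1a2 and Slc1a3 peak in astrocyte-like nuclei, where Slc1a1 is lowest (38.1 CPM).

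Among the GABA carriers, Slc6a11 (GAT3), known from astrocytes, stood clear in astrocyte-like nuclei at 198 CPM, against 39.7 CPM in ependymal-like and 10.4 CPM in dentate granule-like nuclei. Slc6a13 (GAT2), known from the meninges and vessels, reached 17.6 CPM in endothelial-like nuclei, with 1.51 CPM in astrocyte-like nuclei and no count in CA2 pyramidal-like nuclei. The taurine carrier Slc6a6 had 1167 CPM in endothelial-like nuclei, clear of 200 CPM in CA2 pyramidal-like nuclei, and was lowest in astrocyte-like nuclei at 48.1 CPM. The creatine carrier Slc6a8 had 61.5 CPM in oligodendrocyte-like, 30.2 CPM in endothelial-like and 11.3 CPM in ependymal-like nuclei. The betaine and GABA carrier Slc6a12 stayed at or under 1.95 CPM in the tested classes, but had 42.6 CPM pooled in the untested vascular leptomeningeal-like nuclei.

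Slc6a9 (GlyT1), the glycine carrier of glia, averaged 49.4 CPM in oligodendrocyte-like nuclei, with 29.8 CPM in ependymal-like and 4.22 CPM in dentate granule-like nuclei. The glycine carrier of inhibitory terminals, Slc6a5 (GlyT2), had 5 counts over the 12 classes together. Slc6a7 (PROT), a proline carrier of excitatory terminals, was highest in CA3 pyramidal-like nuclei at 73.8 CPM and next in subicular or cortical excitatory-like nuclei at 65.7 CPM, with overlap, and lowest in endothelial-like nuclei at 6.29 CPM. The proline carrier Slc6a20a had 182 CPM in endothelial-like nuclei against 5.59 CPM in inhibitory-like and 1.47 CPM in oligodendrocyte precursor-like nuclei. Within the endothelial-like class it had 327 CPM in a sub-cluster of 237 nuclei that also carried pericyte markers, and 8.05 CPM in the largest sub-cluster of 424 nuclei. Its close copy Slc6a20b reached 12.9 CPM in inhibitory-like, 9.4 CPM in subicular or cortical excitatory-like and 2.77 CPM in ependymal-like nuclei, and how reads that match both copies were counted is not given in the sources used here, so both values are uncertain.

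None of the monoamine carriers Slc6a2 (noradrenaline), Slc6a3 (dopamine) and Slc6a4 (serotonin) reached 1 CPM in any tested class, with 33, 17 and 31 counts over the 12 classes. The cell bodies of monoamine neurons lie outside the hippocampus. Of the remaining Slc6 carriers, Slc6a17 (NTT4), found on synaptic vesicles, was highest in CA3 pyramidal-like nuclei at 149 CPM, followed with overlap by 144 CPM in subicular or cortical excitatory-like nuclei, and lowest in endothelial-like nuclei at 41.8 CPM. Slc6a15, a neutral amino acid carrier of neurons, averaged 96 CPM in CA2 pyramidal-like, 77.2 CPM in ependymal-like and 17.9 CPM in endothelial-like nuclei. Slc6a19, the neutral amino acid carrier of gut and kidney, stood clear in ependymal-like nuclei at 19.5 CPM, with 0.874 CPM in oligodendrocyte precursor-like nuclei and no count in endothelial-like nuclei. Slc6a14, Slc6a16, Slc6a18 and Slc6a21 stayed under 10 CPM.

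Carriers known from the blood-brain barrier were highest in endothelial-like nuclei. The light chain Slc7a5 (LAT1), which imports large neutral amino acids, had 736 CPM there, 29.3 CPM in ependymal-like and 3.51 CPM in CA2 pyramidal-like nuclei. Its heavy chain Slc3a2 (4F2hc) was also highest there at 273 CPM, with 76.5 CPM in CA2 pyramidal-like and 41.9 CPM in oligodendrocyte precursor-like nuclei. The cationic carrier Slc7a1 (CAT1) had 427 CPM in endothelial-like, 35.3 CPM in inhibitory-like and 7.83 CPM in ependymal-like nuclei. Another heavy chain, Slc3a1, known from kidney and gut, stayed at or under 9.39 CPM.

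The other light chains were highest in glial classes or, for Slc7a6, in a neuronal one. Slc7a11 (xCT), which exchanges cystine for glutamate, and Slc7a10 (Asc-1), a carrier of small neutral amino acids including D-serine, had 210 and 172 CPM in astrocyte-like nuclei. The next classes were endothelial-like for Slc7a11 at 47.7 CPM and oligodendrocyte precursor-like for Slc7a10 at 23.9 CPM, and CA2 pyramidal-like nuclei were lowest for both, at 1.09 and 0.561 CPM. Microglia-like nuclei led for Slc7a8 (LAT2) at 190 CPM, clear of 100 CPM in CA2 pyramidal-like nuclei and with 14 CPM in endothelial-like nuclei. They also led for Slc7a7 (y+LAT1), known from macrophages, at 160 CPM, against 24.9 CPM in ependymal-like and 0.35 CPM in CA1 pyramidal-like nuclei. Slc7a6 (y+LAT2) ranged from 76.7 CPM in CA2 pyramidal-like and 67.7 CPM in dentate granule-like nuclei to 18.4 CPM in endothelial-like nuclei. Slc7a15 reached 30.8 CPM in oligodendrocyte-like, 10.8 CPM in microglia-like and 0.281 CPM in astrocyte-like nuclei.

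Of the other cationic carriers, Slc7a2 (CAT2) had 144 CPM in astrocyte-like, 78.9 CPM in ependymal-like and 0.19 CPM in CA2 pyramidal-like nuclei. Slc7a3 (CAT3) reached 15.2 CPM in oligodendrocyte precursor-like, 6.29 CPM in inhibitory-like and 1.11 CPM in CA3 pyramidal-like nuclei. Slc7a14 was the only gene whose highest class was dentate granule-like, at 444 CPM, clear of 252 CPM in CA3 pyramidal-like nuclei, and its lowest value, 30.1 CPM, was that of another neuron class, CA2 pyramidal-like. Slc7a4 varied little, from 29.3 CPM in microglia-like and 23.3 CPM in oligodendrocyte-like to 8.97 CPM in inhibitory-like nuclei.

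Among the sodium-coupled neutral carriers, Slc38a1 (SNAT1), a glutamine carrier, stood clear in ependymal-like nuclei at 961 CPM, with 118 CPM in inhibitory-like and 29 CPM in endothelial-like nuclei. Slc38a2 (SNAT2) had 289 CPM in oligodendrocyte-like, 128 CPM in endothelial-like and 38.5 CPM in astrocyte-like nuclei. Slc38a3 (SNAT3), which releases glutamine from astrocytes, averaged 91.7 CPM in endothelial-like, 61.1 CPM in ependymal-like and 0.721 CPM in CA2 pyramidal-like nuclei. Slc38a5 (SNAT5) had 60.3 CPM in endothelial-like, 2.25 CPM in dentate granule-like and 0.162 CPM in CA3 pyramidal-like nuclei. Slc38a11 had 105 CPM in endothelial-like, 4.58 CPM in ependymal-like and 0.0891 CPM in CA3 pyramidal-like nuclei. Slc38a6 had 123 CPM in ependymal-like, 70.4 CPM in oligodendrocyte-like and 35.8 CPM in CA3 pyramidal-like nuclei.

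Several Slc38 and Slc36 members averaged highest in microglia-like nuclei, but for Slc38a9, Slc38a7, Slc36a1 and Slc38a10 the libraries overlapped those of the next class. Slc38a9, the lysosomal arginine sensor of mTORC1, had 162 CPM there, 113 CPM in oligodendrocyte precursor-like and 50.9 CPM in endothelial-like nuclei. Slc38a7, a lysosomal glutamine carrier, had 34.2 CPM in microglia-like, 23.5 CPM in inhibitory-like and 7.96 CPM in ependymal-like nuclei. The proton-coupled Slc36a1 had 96.7 CPM in microglia-like, 30.7 CPM in endothelial-like and 7.47 CPM in ependymal-like nuclei. Slc38a10 had 56 CPM in microglia-like, 42.8 CPM in endothelial-like and 12 CPM in CA2 pyramidal-like nuclei. Slc36a4 ranged only from 34.1 CPM in endothelial-like and 31.8 CPM in microglia-like to 14 CPM in CA3 pyramidal-like nuclei. Of the Slc43 family, Slc43a2 (LAT4), which lets large neutral amino acids pass by facilitated diffusion, had 116 CPM in microglia-like, 65.6 CPM in oligodendrocyte-like and 21.8 CPM in endothelial-like nuclei. Slc43a3, a carrier of purine bases, had 80.5 CPM in ependymal-like and 7.16 CPM in astrocyte-like nuclei and no count in CA2 pyramidal-like nuclei.

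Classes too small to test held further strong signals, given pooled over the libraries and with no test. In 595 vascular leptomeningeal-like nuclei, Slc38a2 had 1164 CPM, Slc7a11 1044 CPM, Slc6a20a 1040 CPM and Slc6a13 387 CPM, each above its highest tested class. The same held there for Slc7a2 (217 CPM), Slc6a20b (52.8 CPM), Slc6a12 (42.6 CPM) and Slc1a5 (41.8 CPM), among others. The highest class given above for a gene is thus the highest of the tested classes only. In 175 pericyte-like nuclei, Slc6a20a had 573 CPM and Slc38a11 521 CPM, again above endothelial-like nuclei.

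Sevoflurane was set against oxygen within each class. Of 406 pairs of a gene and a class that passed the filter on low counts, counting the opposite-strand gene Slc7a6os, which passed in all 12 classes and was never called, 8 were called (edgeR's quasi-likelihood test, Benjamini-Hochberg adjusted p under 0.05 within a class), that is 1.97%, against 1.62% of all 143448 gene and class pairs. The share of these family genes called was thus near that of all genes. A total of 2 pairs rose and 6 fell, in 5 of the 12 classes and in 8 different genes. In each of the 8 the libraries of the groups did not overlap, as held for 22.3% of all gene and class pairs. Of these calls, 4 lay in astrocyte-like nuclei. The median log2 fold change (sevoflurane over oxygen) of the 36 family genes tested there was 0.02 and that of all genes 0.01. Normalization matters for the size of small changes: without the TMM factors the median gene stood 0.10 higher (log2) after sevoflurane in astrocyte-like and 0.15 higher in dentate granule-like nuclei. All 8 calls kept their direction in plain CPM, in which the values below are given.

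**Figure D3:**
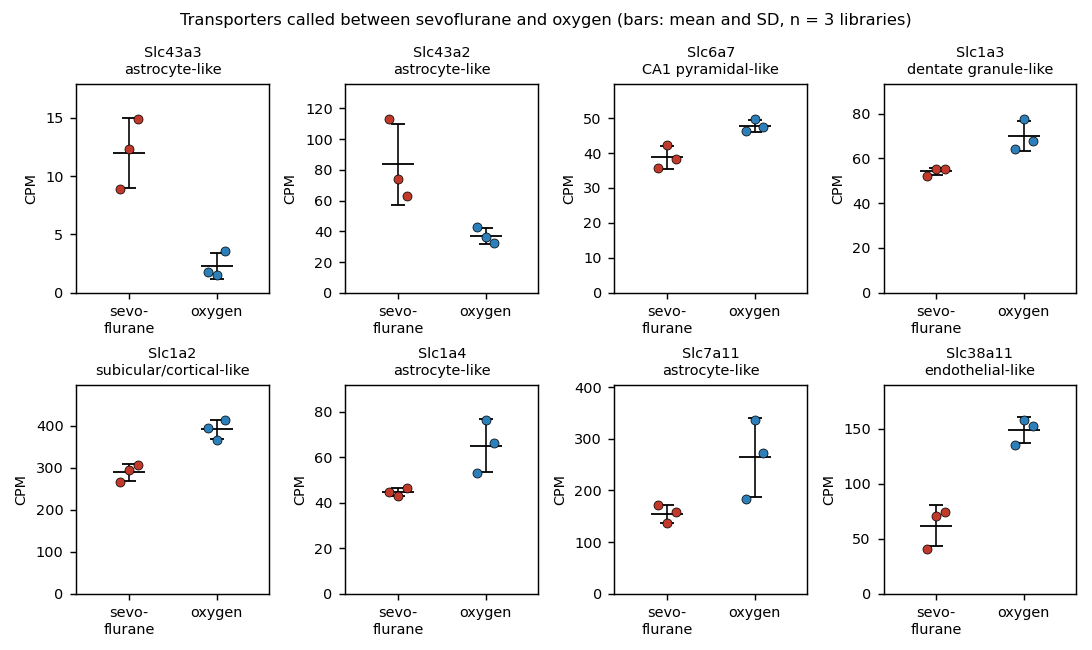
CPM of the 8 called gene and class pairs in each library (points), with mean and SD of 3 libraries (black), sevoflurane left of oxygen. In every panel the libraries of the groups do not overlap; Slc43a3 and Slc43a2 in astrocyte-like nuclei are the pairs that rose.

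In astrocyte-like nuclei, 36 family genes were tested, 2 rose and 2 fell, and of all 12621 genes tested 2.15% were called (0.935% higher and 1.21% lower after sevoflurane). The 4 were Slc43a3 and Slc43a2, which rose, and Slc7a11 and Slc1a4, which fell. The purine base carrier Slc43a3 (chr2:84936579-84958509, plus strand, mm10) had 8.92, 12.3 and 14.9 CPM in sevoflurane libraries, against 1.82, 1.48 and 3.59 CPM in oxygen libraries. The lowest sevoflurane library thus stood above the highest oxygen library. These values rest on 11, 28 and 39 counts in sevoflurane libraries and on 4, 4 and 7 counts in oxygen libraries. Its log2 fold change was 2.38 ± 0.38 (SE, edgeR adjusted p = 0.00314). Slc43a3 passed the filter on low counts only through its sevoflurane libraries, which limits what this test can show. Slc43a3 belongs mainly to ependymal-like nuclei, and ependymal markers moved in the same direction: 8 of 10 were higher after sevoflurane, with summed levels of 47 to 52.7 CPM in sevoflurane libraries and 26.9 to 39.7 CPM in oxygen libraries. In ependymal-like nuclei themselves these markers summed to 7833 to 9880 CPM in sevoflurane libraries and 7614 to 8479 CPM in oxygen libraries, beside 85.1 ± 10.6 CPM of Slc43a3 after sevoflurane and 76 ± 13.2 CPM after oxygen (SD, n = 3 each). The part of ependymal RNA in the Slc43a3 result was not tested further.

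Slc43a2 (chr11:75531694-75577575, plus strand), the facilitated carrier of large neutral amino acids, had 113, 73.8 and 63.2 CPM in astrocyte-like nuclei of sevoflurane libraries, against 42.9, 36 and 32.3 CPM of oxygen libraries. Sevoflurane replicate 1, the library with the female pattern, was the highest. Sevoflurane over oxygen gave a log2 fold change of 1.04 ± 0.20 (SE, edgeR adjusted p = 0.0131), and without that library 0.78 (adjusted p = 0.0114). The call was lost without oxygen replicate 2 (adjusted p = 0.105) or oxygen replicate 3 (adjusted p = 0.0824). Microglial markers, which would mark the class where Slc43a2 is highest, summed to 116 to 137 CPM in sevoflurane libraries and 123 to 125 CPM in oxygen libraries.

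Slc7a11 (chr3:49892526-50443614, minus strand), the cystine and glutamate exchanger, had 171, 137 and 158 CPM in sevoflurane libraries, against 184, 336 and 272 CPM in oxygen libraries. Oxygen replicate 1 lay close to the sevoflurane libraries, so the groups were separate by a narrow gap. The log2 fold change was -0.86 ± 0.20 (SE, edgeR adjusted p = 0.042). With a correction for gene span the value was -0.70 (adjusted p = 0.164), and leaving out any 1 library other than oxygen replicate 1 also ended the call (without sevoflurane replicate 1, adjusted p = 0.0688). Slc7a11 spans 551.1 kb and overlaps an antisense gene and pseudogenes.

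Slc1a4 (chr11:20302180-20332713, minus strand), the serine exchanger, had 44.6, 43 and 46.5 CPM in sevoflurane libraries, against 52.9, 76.4 and 66.2 CPM in oxygen libraries. The sevoflurane libraries were tight and all below the oxygen libraries. Its log2 fold change was -0.64 ± 0.16 (SE, edgeR adjusted p = 0.0486). The call was lost in 9 of 13 alternatives, including without sevoflurane replicate 1 (adjusted p = 0.0609). DESeq2 gave an adjusted p of 0.0695.

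Choroid plexus markers also differed between the groups in the astrocyte-like class, where the 9 summed to 27 to 47.4 CPM in sevoflurane libraries and 174 to 1000 CPM in oxygen libraries. Ttr carried this, at 6.48, 6.59 and 2.67 CPM in sevoflurane libraries against 329, 144 and 946 CPM in oxygen libraries. The other 8 summed to 24.4 to 40.9 CPM in sevoflurane libraries and 29.3 to 55 CPM in oxygen libraries, which overlapped. In the choroid plexus-like nuclei the pooled level of Slc7a11 was 4.53 CPM and that of Slc1a4 1.13 CPM. The part of choroid plexus RNA in the results of this class was not tested.

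The windows around the start sites of both genes that fell in astrocyte-like nuclei hold the letters TGATGNAA, the core of the amino acid response element bound by Atf4, which is why they are shown. They run from 250 bases before to 50 bases after the start (RefSeq, GRCm38.p6, minus strand, 5′ to 3′), Slc7a11 at chr3:50443564-50443863 and Slc1a4 at chr11:20332664-20332963. Capitals mark matches to TGATGNAA on either strand.
Slc7a11: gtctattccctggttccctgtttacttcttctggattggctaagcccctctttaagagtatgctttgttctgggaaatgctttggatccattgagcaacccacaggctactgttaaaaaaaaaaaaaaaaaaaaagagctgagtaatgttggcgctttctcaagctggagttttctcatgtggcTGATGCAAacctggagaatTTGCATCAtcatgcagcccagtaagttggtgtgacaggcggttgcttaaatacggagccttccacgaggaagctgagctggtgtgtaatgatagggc
Slc1a4: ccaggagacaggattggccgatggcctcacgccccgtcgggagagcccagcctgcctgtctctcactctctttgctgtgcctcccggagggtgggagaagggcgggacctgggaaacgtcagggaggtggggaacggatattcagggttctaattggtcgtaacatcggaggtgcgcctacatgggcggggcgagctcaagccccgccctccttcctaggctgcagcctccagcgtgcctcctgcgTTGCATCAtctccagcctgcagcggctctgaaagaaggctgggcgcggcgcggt
Slc7a11 holds 2 matches, on opposite strands and without overlap, and Slc1a4 holds 1 on the strand opposite to the gene. The letters occurred in 3.97% of all 32851 windows of this length in the table, and in 5 of 70 windows (7.14%) of the 49 family symbols it contains, opposite-strand genes included, which belong to Slc7a11, Slc1a4, Slc7a7 and Slc6a21. Neither window of Slc43a2 had a match, and no window was available for Slc43a3, the other gene that rose. The letters TGACNNNGC, the core of the antioxidant response element bound by Nrf2, occurred on either strand in 12.4% of all windows and in 12 of these 70 windows (17.1%), and not in the windows of Slc7a11, Slc1a4 or Slc43a2. A match of letters is a description and not a binding site.

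In dentate granule-like nuclei, 1 of 43 family genes tested was called, against 4.65% of all 15988 genes. Slc1a3 (chr15:8634124-8710764, minus strand) had 52.3, 55.3 and 55.1 CPM in sevoflurane libraries, against 64.3, 77.5 and 67.8 CPM in oxygen libraries. All sevoflurane libraries lay below all oxygen libraries. Sevoflurane over oxygen gave a log2 fold change of -0.50 ± 0.09 (SE, edgeR adjusted p = 0.0121), and -0.41 without oxygen replicate 2 (adjusted p = 0.057). Both dentate granule-like clusters showed the difference, with 51.9, 52.3 and 53.2 CPM after sevoflurane against 61.7, 77.5 and 65.5 CPM after oxygen in the larger one, and 54.2, 60.1 and 67.5 CPM against 84.9, 77.1 and 119 CPM in the smaller one. The groups drew on these clusters unequally: the smaller one held 578, 895 and 245 nuclei of sevoflurane libraries against 137, 66 and 83 of oxygen libraries, and the larger one 1512, 950 and 1379 against 895, 1871 and 1232. With equal cluster shares, added after seeing the data, the log2 fold change was -0.53 (edgeR adjusted p = 0.00518). Astrocyte markers other than Slc4a4 summed to 75.7 to 102 CPM in sevoflurane libraries and 78.6 to 88.5 CPM in oxygen libraries of this class. These ranges overlapped. Slc4a4 itself was lower, at 772 to 845 CPM in sevoflurane libraries and 890 to 962 CPM in oxygen libraries. All 14 markers with Slc4a4 summed to 874 to 932 CPM in sevoflurane libraries and 976 to 1050 CPM in oxygen libraries. The part of astrocyte RNA in the Slc1a3 result was not tested. In astrocyte-like nuclei Slc1a3 averaged 2253 ± 527 CPM after sevoflurane and 2166 ± 287 CPM after oxygen (SD, n = 3 each), with a log2 fold change of -0.03 ± 0.17 (SE, edgeR adjusted p = 0.962).

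In subicular or cortical excitatory-like nuclei, 1 of 41 family genes tested was called, against 1.44% of all 15382 genes. Slc1a2 (chr2:102658659-102790784, plus strand) had 266, 294 and 308 CPM in sevoflurane libraries, against 395, 367 and 414 CPM in oxygen libraries. Each sevoflurane library was below each oxygen library. The log2 fold change was -0.56 ± 0.08 (SE, edgeR adjusted p = 0.0133). The call was lost in 3 of 14 alternatives, with an adjusted p up to 0.0762. Among them were those without oxygen replicate 2 (adjusted p = 0.0725) and without oxygen replicate 3 (adjusted p = 0.0739). Without oxygen replicate 2, 0 of all 15707 genes were called in this class. Of the 5 clusters in this class, one of 1567 nuclei had 567, 623 and 614 CPM after sevoflurane against 774, 757 and 802 CPM after oxygen, and one of 119 nuclei had 478, 759 and 695 CPM against 1020, 951 and 963 CPM. In the other clusters the libraries of the groups overlapped. Astrocyte markers other than Slc4a4 summed to 70.4 to 90.3 CPM in sevoflurane libraries and 70.2 to 110 CPM in oxygen libraries. All 14 markers with Slc4a4 summed to 201 to 254 CPM in sevoflurane libraries and 251 to 316 CPM in oxygen libraries. The part of astrocyte RNA in the Slc1a2 result was not tested. In astrocyte-like nuclei Slc1a2 had 6909, 5933 and 5950 CPM after sevoflurane against 7747, 7252 and 7647 CPM after oxygen, a log2 fold change of -0.35 ± 0.13 that was not called (SE, edgeR adjusted p = 0.169).

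In CA1 pyramidal-like nuclei, 1 of 38 family genes tested was called, against 1.79% of all 15180 genes. The proline carrier Slc6a7 (chr18:60995380-61014222, minus strand) had 35.8, 42.4 and 38.2 CPM in sevoflurane libraries, against 46.3, 49.7 and 47.4 CPM in oxygen libraries. The groups did not overlap, but the gap was small. Its log2 fold change was -0.42 ± 0.09 (SE, edgeR adjusted p = 0.0465), and leaving out any 1 library ended the call (adjusted p = 0.0637 to 0.209). Of the clusters of this class, the larger one of 3601 nuclei had 26.5, 33.5 and 28.4 CPM after sevoflurane against 29.5, 36.8 and 33.7 CPM after oxygen, which overlapped. The smaller one of 1869 nuclei had 51.1, 63.6 and 52.6 CPM after sevoflurane against 72.5, 68.3 and 65.5 CPM after oxygen, without overlap. With equal cluster shares, added after seeing the data, the log2 fold change was -0.36 (edgeR adjusted p = 0.0989). Markers of CA3 pyramidal cells, where Slc6a7 is highest, summed to 687 to 727 CPM in sevoflurane libraries and 754 to 861 CPM in oxygen libraries of this class, with 5 of 9 lower after sevoflurane. Subicular or cortical excitatory markers, of the next highest class, summed to 481 to 525 CPM in sevoflurane libraries and 538 to 597 CPM in oxygen libraries, with 8 of 14 lower. The part of either list in the result was not tested. In CA3 pyramidal-like nuclei Slc6a7 had 66.3, 70 and 60.9 CPM after sevoflurane against 77.8, 80.7 and 87.5 CPM after oxygen, with a log2 fold change of -0.40 ± 0.09 (SE, edgeR adjusted p = 0.0545).

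In endothelial-like nuclei, 1 of 27 family genes tested was called, against 3% of all 8511 genes. Slc38a11 (chr2:65316430-65364034, minus strand) had 40.4, 71 and 74.6 CPM in sevoflurane libraries, against 135, 158 and 153 CPM in oxygen libraries. The groups did not overlap, and sevoflurane replicate 1 was the lowest library. Sevoflurane over oxygen gave a log2 fold change of -1.14 ± 0.21 (SE, edgeR adjusted p = 0.00344). This signal came mainly from a sub-cluster of 237 nuclei that also carried pericyte markers at 7237 CPM, where Slc38a11 had 203 CPM, against 3.22 CPM in the 424 nuclei of the largest sub-cluster. The pericyte-marked nuclei made up 52.7, 31.4 and 22.3% of the class in sevoflurane libraries and 28, 44 and 31.2% in oxygen libraries. Within them alone, a split chosen after the data had been seen, Slc38a11 had 61.1, 139 and 167 CPM after sevoflurane against 279, 244 and 270 CPM after oxygen, a log2 fold change of -1.03 ± 0.24 (SE, edgeR adjusted p = 0.0143). Pericyte markers in the whole class summed to 4350 to 4640 CPM in sevoflurane libraries and 4357 to 6302 CPM in oxygen libraries, with 7 of 8 lower after sevoflurane. Smooth muscle markers summed to 125 to 295 CPM in sevoflurane libraries and 244 to 447 CPM in oxygen libraries, with 5 of 5 lower. The part of these lists in the result was not tested.

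The barrier carriers themselves passed no test in endothelial-like nuclei. Slc7a5 had 576, 721 and 617 CPM in sevoflurane libraries, against 816, 903 and 785 CPM in oxygen libraries. These did not overlap, but the log2 fold change of -0.36 ± 0.17 was not called (SE, edgeR adjusted p = 0.36), and 19.4% of all genes tested in this class had groups that did not overlap. Slc3a2 averaged 270 ± 43.3 CPM after sevoflurane and 276 ± 37.5 CPM after oxygen, Slc7a1 458 ± 85.7 and 397 ± 22.2 CPM, and Slc6a6 1260 ± 89.9 and 1074 ± 225 CPM (SD, n = 3 each).

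**Figure D4:**
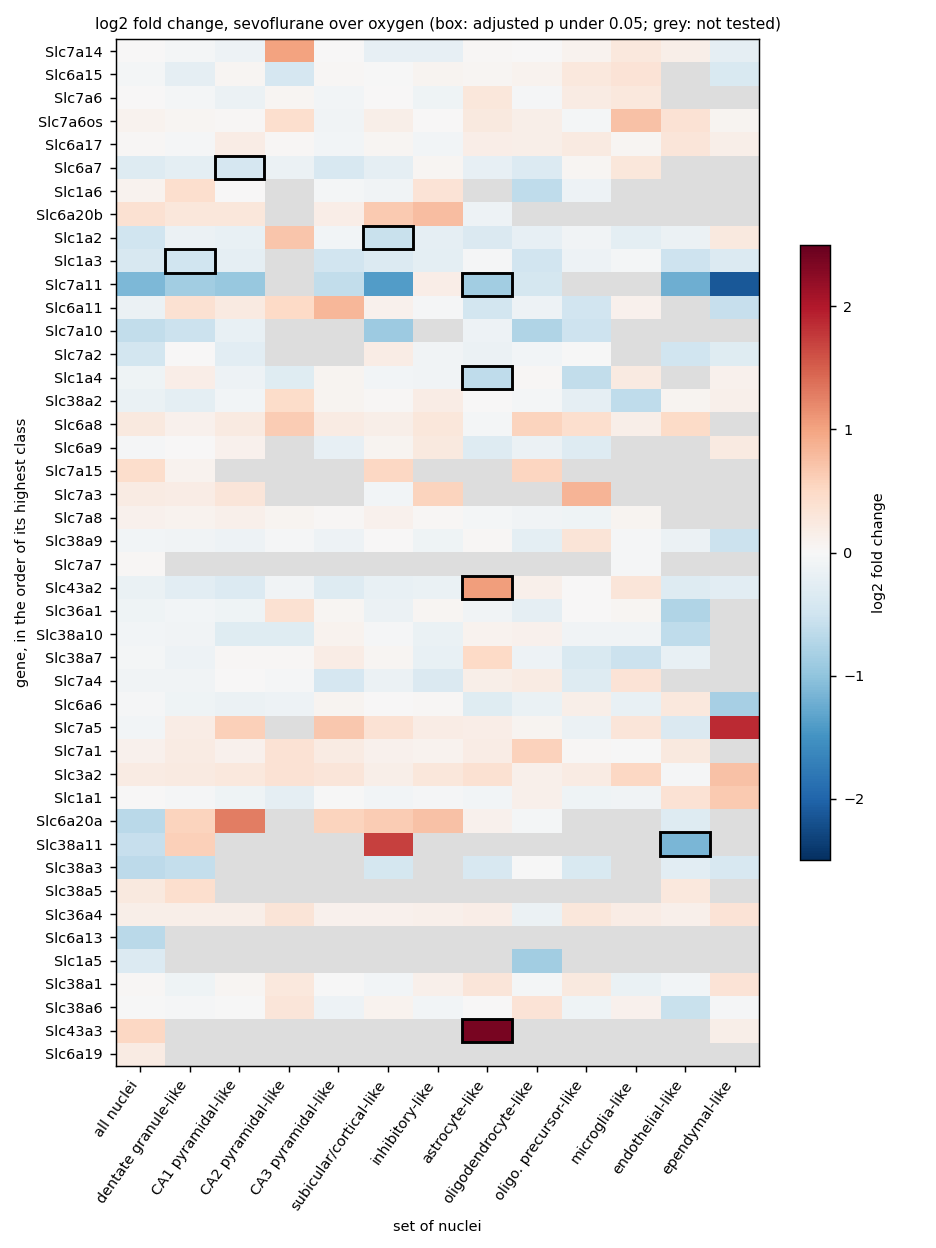
Log2 fold change of sevoflurane over oxygen (edgeR, colour) for 44 of the mapped genes (rows) in all nuclei and in the 12 classes (columns). Boxes mark the 8 calls, grey cells were not tested, and Slc7a11 is blue in 8 of its 9 tested classes.

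No family gene was called in the other 7 classes by edgeR. At an unadjusted p under 0.05 the counts were 6 of 37 in oligodendrocyte-like, 4 of 36 in inhibitory-like, 7 of 35 in CA3 pyramidal-like, 3 of 29 in microglia-like, 1 of 34 in oligodendrocyte precursor-like, 5 of 24 in ependymal-like and 4 of 26 in CA2 pyramidal-like nuclei. DESeq2 called 1 in CA3 pyramidal-like nuclei, against 244 of all 13312 genes, and 0 in the other 6. The shares of all genes called by edgeR at an adjusted p under 0.05 in these classes were 0.37%, 1.61%, 1.16%, 0.438%, 0%, 0.681% and 0.411%, in the same order. The share of all genes at an unadjusted p under 0.05 was not taken. The unadjusted counts therefore cannot be set against these shares.

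Over all nuclei, 52 family genes, Slc7a6os among them, were tested and none was called by edgeR, against 1.9% of all 20763 genes. At an unadjusted p under 0.05 there were 12, for which the share of all genes was not taken. DESeq2 called 5 of the family genes, against 1426 of all 20763 genes. The groups did not overlap for 21 of the 52, and for 31.1% of all genes. The smallest adjusted p values belonged to Slc6a7 (0.0623), Slc7a11 (0.0825) and Slc38a3 (0.0958). Slc7a11 had 10.1, 9.11 and 17.9 CPM in sevoflurane libraries, against 21.3, 26.5 and 27.3 CPM in oxygen libraries, a log2 fold change of -1.12 ± 0.26 (SE). Vascular leptomeningeal-like nuclei, where Slc7a11 was highest, numbered 49, 18 and 156 in sevoflurane libraries and 113, 108 and 151 in oxygen libraries. With classes given equal shares in every library the log2 fold change of Slc7a11 was -0.87 (edgeR adjusted p = 0.0383). Classes too small to test, vascular leptomeningeal-like nuclei among them, were left out of those shares. The part of vascular leptomeningeal-like nuclei in the result over all nuclei was therefore not tested.

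Some genes leaned one way in most of the classes where they were tested, and the genes below are examples. The classes share their libraries and are not independent, so these counts are descriptions. Slc1a3 had a negative fold change in 11 of 11 classes tested (-0.51 to -0.03, log2) and Slc7a11 in 8 of 9 (-2.11 to 0.16). Each of them was called in 1 class. Slc38a3 was negative in 7 of 7 (-0.605 to -0.015) and Slc7a10 in 6 of 6 (-0.917 to -0.128), neither with a call. Slc3a2 was positive in 11 of 12 (-0.02 to 0.73), Slc7a1 in 10 of 11 (-0.01 to 0.59) and Slc36a4 in 11 of 12 (-0.15 to 0.35). Slc6a8 was positive in 10 of 11 (-0.042 to 0.628), and none of these positive genes was called. By role, the glutamate carriers were negative in 34 of 42 pairs (median -0.11) and the heavy chains positive in 15 of 17 (median 0.26), of which 2 and 0 pairs were called.

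A fold change called in one class and not in another does not show that the classes differ, so the difference itself was tested for a pair of contrasts (limma on differences within a library). Between astrocyte-like and dentate granule-like nuclei, 3 of 35 family genes tested differed in their response, against 1.78% of all 12258 genes. These were Slc6a11, Slc43a2 and Slc1a4. Between dentate granule-like and oligodendrocyte-like nuclei 0 of 36 differed by limma, against 0.0722% of 12460 genes. At an unadjusted p under 0.05 there were 4, for which the share of all genes was not taken. No other tool was run on these differences.

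Genes around the carriers were followed in 5 lists. Of the 17 genes of glutamate, glutamine and GABA metabolism, only Glud1, glutamate dehydrogenase, passed in any class. In astrocyte-like nuclei it fell to 274, 292 and 336 CPM in sevoflurane libraries, against 424, 463 and 462 CPM in oxygen libraries, with no overlap (log2 fold change -0.67 ± 0.13, SE, edgeR adjusted p = 0.00895). The 16 genes of this list tested there had a median log2 fold change of 0.03.

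Of the 24 genes of the Atf4 list, Ddit4, a stress-induced inhibitor of mTORC1, was the only one called. It had 34, 41.3 and 41.1 CPM in astrocyte-like nuclei of sevoflurane libraries, against 20.5, 13.4 and 18.5 CPM of oxygen libraries (log2 fold change 1.10 ± 0.19, SE, edgeR adjusted p = 0.00505). In microglia-like nuclei it had 29.7, 46.1 and 51.8 CPM after sevoflurane against 23.4, 7.36 and 9.28 CPM after oxygen (log2 fold change 1.66 ± 0.38, SE, edgeR adjusted p = 0.0344). In neither class did the groups overlap. The 18 genes of the list tested in astrocyte-like nuclei had a median log2 fold change of 0.22, against 0.01 over all genes.

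Of the 23 genes of amino acid sensing by mTORC1, Sesn3, a sestrin, was the one called, in astrocyte-like nuclei. It had 359, 265 and 237 CPM in sevoflurane libraries, against 148, 119 and 139 CPM in oxygen libraries, with no overlap (log2 fold change 0.99 ± 0.15, SE, edgeR adjusted p = 0.0026). Of the 12 Nrf2 and glutathione genes, the quinone reductase Nqo1 rose in dentate granule-like nuclei, at 4.37, 4.15 and 4.92 CPM after sevoflurane against 1.68, 2.59 and 1.33 CPM after oxygen (log2 fold change 1.09 ± 0.26, SE, edgeR adjusted p = 0.0395). Malic enzyme Me1 fell in CA1 pyramidal-like nuclei, at 35.5, 39.1 and 49.4 CPM after sevoflurane against 54.8, 53.6 and 56.5 CPM after oxygen (log2 fold change -0.52 ± 0.11, SE, edgeR adjusted p = 0.0454) and in CA3 pyramidal-like nuclei (-0.43 ± 0.09, adjusted p = 0.0315). Of the 8 monoamine genes, the decarboxylase Ddc fell in endothelial-like nuclei, at 58.7, 61.9 and 67.6 CPM after sevoflurane against 182, 111 and 112 CPM after oxygen (log2 fold change -1.09 ± 0.23, SE, edgeR adjusted p = 0.0109).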

How the data were processed

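Single-nucleus 3' libraries were measured in 6 samples, grouped by the treatment in their titles. Per the submitters' processing notes, the tools were fastp and Cell Ranger 7.1.0, and the genome build was mm10. The deposited matrices hold raw counts, whole UMI counts per gene and barcode. The sources used here do not say whether introns were counted. The members, gene lists and markers were chosen with earlier results of these data known.

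Barcodes with at least 500 UMIs, 300 genes and at most 5% mitochondrial counts were kept (53287). Doublets were scored with Scrublet in scanpy 1.11.5. The automatic threshold failed in oxygen replicate 1 (0.06% called), so the median of the other 5 thresholds, 0.274, was used throughout, which removed 1535 barcodes. Leiden clustering (igraph 0.11.9, resolution 1, 40 principal components, 20 neighbours, 3000 variable genes, no integration) gave 44 clusters, of which 28 were named. A name needed 3 or more markers of 1 type at 10 CPM and 2 times the level in the other nuclei, and either the bulk of that type's markers or 1 of them among the 10 leading genes. Other clusters stayed unnamed, as did those led by another type, with mixed lineages, few UMIs or over 30% doublets.

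Raw counts were summed per library and class, and 67 symbols were placed on GENCODE M21. The treatment test was the quasi-likelihood test of edgeR 4.0.16 in R 4.3.3 (TMM, filterByExpr, robust), with p-values adjusted by Benjamini-Hochberg over all genes of a class. The SE is the absolute fold change over the square root of F. Differences between classes used limma 3.58.1 on within-library log2 CPM differences, with a prior count of 2. Alternatives were relative log expression factors, DESeq2 1.42.0, no low-count filter, a replicate block, a gene span correction, a stricter nuclei filter (1000 UMIs, 1% mitochondrial) and leaving out each library. The edgeR and limma steps were tested on simulated counts. Genes named were all called transporters, every transporter reaching 10 CPM in a tested class, and called genes of the lists; the values of 1 such transporter are not reported here. Depth per class and library ran from 272430 UMIs (endothelial-like) to 15847616 (dentate granule-like).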

Additional observations from a re-analysis of the deposited data

Results flagged for a closer look

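The response to sevoflurane of 3 transporters differed between astrocyte-like and dentate granule-like nuclei in a test of the difference itself (limma, adjusted over 12258 genes). Slc6a11, the astrocytic GABA carrier, had a difference of log2 fold changes of -0.85 ± 0.14 (SE, limma adjusted p = 0.0053). In astrocyte-like nuclei it had 160, 175 and 181 CPM in sevoflurane libraries, against 228, 233 and 211 CPM in oxygen libraries, and in dentate granule-like nuclei 10.6, 13.2 and 12.7 CPM against 8.58, 8.96 and 8.1 CPM. The sevoflurane libraries were all below the oxygen libraries in astrocyte-like nuclei and all above them in dentate granule-like nuclei, although neither class alone passed the edgeR test (adjusted p = 0.0525 in astrocyte-like and 0.156 in dentate granule-like nuclei). The difference was called in all 9 alternatives.

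Slc43a2 had a difference of 1.29 ± 0.23 (SE, limma adjusted p = 0.0156). In dentate granule-like nuclei it had 38.5, 45.2 and 43.9 CPM in sevoflurane libraries, against 49.7, 47.6 and 42.8 CPM in oxygen libraries, which overlapped. The difference was lost without oxygen replicate 2 (limma adjusted p = 0.108) or oxygen replicate 3 (0.0924).

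Slc1a4 had a difference of -0.82 ± 0.20 (SE, limma adjusted p = 0.0485). In dentate granule-like nuclei it had 8.27, 9.57 and 9.9 CPM in sevoflurane libraries, against 6.43, 9.84 and 6.1 CPM in oxygen libraries, which overlapped. This difference was lost in 8 of 9 alternatives (limma adjusted p up to 0.208).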

How the results depend on the processing

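None of the 8 called pairs changed sign under any alternative. Slc43a3 in astrocyte-like nuclei was called in all 12 alternatives that gave a value (log2 fold change 2.12 to 2.78, and DESeq2 gave no adjusted p). In the main test it passed the low-count filter only through its sevoflurane libraries. Slc38a11 in endothelial-like nuclei was called in all 13 (-1.29 to -1.01). Under the stricter nuclei filter, and without the pericyte-marked sub-cluster, it was not tested. Slc1a4 lost its call in 9 of 13, Slc6a7 in 10 of 14 and Slc7a11 in 7 of 13 alternatives; the cause was not tested. Counts of called family genes moved as follows. Over all nuclei (0) they were 5 with DESeq2, 1 without the low-count filter, 1 with the stricter nuclei filter and 3 with equal class shares. Calls over all genes were then 1426 of 20763, 604 of 27870, 545 of 20465 and 924 of 20641, in the same order. The main test gave 394 of 20763. The equal class shares left out the classes too small to test. Over the 12 classes (8) the family genes called were 25 without the filter and 4 with the span correction and replicate block. Without the filter they were 3 in oligodendrocyte-like, 3 in CA1 pyramidal-like, 3 in subicular or cortical excitatory-like, 1 in inhibitory-like, 2 in CA3 pyramidal-like, 1 in microglia-like, 2 in endothelial-like, 2 in ependymal-like and 2 in CA2 pyramidal-like nuclei. Calls over all genes in these classes were then 366, 700, 698, 718, 537, 98, 385, 127 and 176, in the same order. With the filter those calls were 47, 272, 222, 227, 155, 42, 255, 51 and 35. With the span correction and replicate block, calls over all genes were 1 to 251 per class, against 0 to 743 in the main test. Replicate numbers did not pair the libraries (correlations of deviations -0.145 to 0.092). With the replicate block, CA1 pyramidal-like nuclei had 0 calls, and also 0 with the span correction, with both and with equal cluster shares. Calls over all genes in this class were then 120, 112, 27 and 276, in the same order, against 272 in the main test. With the span correction and the replicate block, subicular or cortical excitatory-like nuclei had 0 calls and astrocyte-like nuclei 2. Calls over all genes in these classes were then 11 of 15382 and 251 of 12621. With equal cluster shares, added after seeing the data, subicular or cortical excitatory-like nuclei had 3 calls, against 548 of all 15320 genes. In CA3 pyramidal-like nuclei DESeq2 and the stricter filter each gave 1 call, against 244 of 13312 and 205 of 13257 genes. Endothelial-like nuclei had 0 calls under the stricter filter, against 0 of all 3642 genes. They also had 0 without the pericyte-marked sub-cluster, a split added after seeing the data, against 74 of all 5641 genes. Slc38a11 had 18 counts in that split and was not tested there. Leaving out 1 library gave 2 to 8 calls over the 12 classes, 0 to 1 over all nuclei, 1 to 4 in astrocyte-like, 1 to 2 in endothelial-like, 0 to 1 in each of dentate granule-like, subicular or cortical excitatory-like, inhibitory-like, CA3 pyramidal-like and ependymal-like, 0 to 2 in CA2 pyramidal-like and 0 to 0 in CA1 pyramidal-like nuclei, and 1 to 3 differences between astrocyte-like and dentate granule-like nuclei. Calls over all genes moved too when 1 library was left out, from 0 to 241 over all nuclei and from 74 to 398 in astrocyte-like nuclei. In dentate granule-like nuclei they ran from 216 to 729 and in subicular or cortical excitatory-like nuclei from 0 to 228. They ran from 28 to 391 in CA1, 44 to 117 in CA3 and 11 to 103 in CA2 pyramidal-like nuclei. The ranges were 101 to 233 in inhibitory-like, 95 to 218 in endothelial-like and 25 to 88 in ependymal-like nuclei. Of the 45 mapped genes, 43 to 45 kept their highest class in each alternative and 40 in all of them, but 15 rather than 24 stood clear with the stricter filter, and 24 to 27 when 1 library was left out. The shallowest library of any tested class was sevoflurane replicate 1 in endothelial-like nuclei, with 55 nuclei.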

Other observations

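Several transporters came close to the threshold in classes where no transporter was called. In ependymal-like nuclei, the large neutral amino acid carrier Slc7a5 had 42.6, 35.7 and 60.4 CPM in sevoflurane libraries, against 3.05, 13 and 21 CPM in oxygen libraries, on 18, 20 and 23 counts against 1, 5 and 6 counts (log2 fold change 1.86 ± 0.47, SE, edgeR adjusted p = 0.0573). Slc7a5 passed the filter on low counts in this class only through its sevoflurane libraries. Its heavy chain Slc3a2 was positive there too, without a call. In CA2 pyramidal-like nuclei, Slc7a14 had 42.2, 34.9 and 46.7 CPM in sevoflurane libraries, against 17.9, 20.6 and 18.4 CPM in oxygen libraries (log2 fold change 1.01 ± 0.25, SE, edgeR adjusted p = 0.0558). In the same class, Slc1a2 had 129, 78.1 and 124 CPM in sevoflurane libraries, against 62, 71 and 57.3 CPM in oxygen libraries (0.69 ± 0.18, SE, adjusted p = 0.0927), the opposite sign to that in subicular or cortical excitatory-like nuclei. The difference between these classes was not tested.

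In inhibitory-like nuclei, Slc6a20b had 16.6, 16.4 and 17.3 CPM in sevoflurane libraries, against 7, 7.91 and 12.5 CPM in oxygen libraries (log2 fold change 0.77 ± 0.20, SE, edgeR adjusted p = 0.0712). In CA3 pyramidal-like nuclei, Slc6a11 had 13.3, 15.4 and 18.1 CPM after sevoflurane against 11.5, 7 and 6.19 CPM after oxygen (0.83 ± 0.23, SE, edgeR adjusted p = 0.0979), the opposite sign to that in astrocyte-like nuclei. None of these passed the test.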
